A study of Gallus gallus with 31 samples.

Results

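The net change with age in the anterior pituitary of chickens of the high growth (HG) line was measured between week 1 and week 7 after hatch, using 7 of the 31 arrays of the series: 3 birds at week 1 and 4 birds at week 7. Members were chosen by the line and age labels alone. HG birds come from meat-type chickens selected over generations for a high juvenile body weight, and their counterparts of the low growth (LG) line for a low one. All birds were male, and each array carried the amplified RNA of 1 bird in the Cy3 channel and a common pool of RNA from both lines and all 4 ages (weeks 1, 3, 5 and 7) in the Cy5 channel. Birds of both ages lived in floor pens with free access to feed, and the ration changed from starter to grower after week 3, when the 2 lines, penned apart until then, were also mixed. Age, ration and housing with LG birds therefore cannot be told apart. The methods give 4 birds for every group, and the HG bird numbered 3 at week 1 is not analysed here. HG week 1 replicate 1 carries a label of week 1, but a header inside its file names week 3. At the 39 spots that changed with age in the low growth line and had a value, this bird lay nearer to the other week-1 birds at 30 and nearer to the week-3 mean at 9. It was kept as week 1. Counts of calls, the larger list counts and the changes of named spots are also given without it where that ends a call or moves them by over 1.5 times; list counts of 4 or fewer are given only with it.

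The anterior pituitary makes the hormones that drive growth, the thyroid, the adrenal cortex and the gonads, each from its own endocrine cell type. In young birds the gland is still enlarging. Dividing cells carry transcripts that peak around mitosis, such as those of cyclin B1 and topoisomerase II alpha, while mature endocrine cells are rich in transcripts for hormones, granule proteins and the machinery of secretion.

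The array held 19200 spots of chicken cDNA, and 14873 to 18342 of them were not flagged on the 7 arrays. Median Cy3 signal over local background ran from 2.58 to 4.08 at week 1 and from 3.83 to 4.58 at week 7, and HG week 1 replicate 1 was the dimmest of the 7. All 10 defining genes of anterior pituitary endocrine cells were on the array, and their 14 spots had a median Cy3 signal of 8.88 times background. Values below are log2 ratios of Cy3 to Cy5 after loess, where 0 is the level of the pool, and they rank birds for 1 spot but not spots or genes against each other. A value given for a gene is that of 1 spot, and some genes have other tested spots that behaved differently. Some spots lacked a value in a bird. Those given for KIF2C, EGR1, PRELP, BTG2, MBP, LMO2 and NRP2 had none in HG week 1 replicate 1 and rest on the other 2 week-1 birds. The 7 arrays correlated at 0.0341 to 0.385 with each other over all spots, and values in the deposited table correlated between arrays of the series from -0.327 to 0.691.

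Between week 1 and week 7, 6 spots rose (0.0368%) and 8 fell (0.0491%) in HG birds at an adjusted p under 0.05 (limma, Benjamini-Hochberg), together 0.0859% of the 16295 spots tested. The 12 of these spots with a gene name stood for 10 genes. PBK, OPTC, KPNA2, TOP2A, PPM1A and CCNB1 fell, and FSCN1, MXRA7, HEBP1 and PRXL2A rose. At an unadjusted p under 0.05, 609 spots (3.74%) were higher and 751 (4.61%) lower, and the median change over all tested spots was -0.01. Without HG week 1 replicate 1, 419 of 15434 spots (2.71%) were higher and 378 (2.45%) lower. The median standard error of a spot's change was 0.22. The weeks did not overlap in any of the 14 called spots, which their choice by the same change favours. Over the 12288 spots present on all 7 arrays, every week-7 bird was above every week-1 bird at 5.88% of spots and below at 4.44%. The counts rest on few birds: 1 rose and 5 fell without HG week 1 replicate 1, 9 and 33 without HG week 1 replicate 4, 1 and 4 without HG week 7 replicate 2, and 2 and 3 without HG week 7 replicate 3. In the deposited log2 ratios, which allowed a test at 8794 spots, 48 spots rose and 35 fell. This was more calls from fewer spots, and a larger share of rises, than in the loess values. Fitted on the 7 HG arrays alone, with no spread borrowed from the other groups, 2 spots passed and TOP2A spot 27.9.5 was the only one of the 14 among them.

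**Figure D1:**
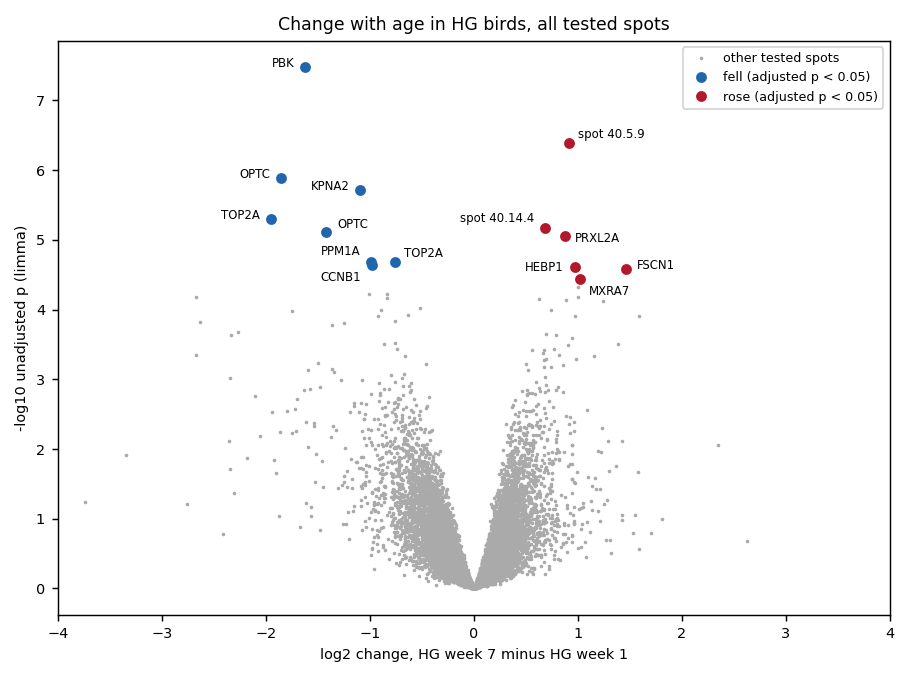
Log2 change from week 1 to week 7 in HG birds (x axis) against -log10 of the unadjusted p from limma (y axis) for the 16295 tested spots, 1 point per spot. The 14 spots past an adjusted p of 0.05 are marked, with 6 on the right and 8 on the left, led by PBK (adjusted p = 0.000537) on the left and the CD24-matched spot (0.00335) on the right.

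The largest group of called genes belonged to cell division. Of 47 tested spots for 32 genes of cell division and mitosis, 5 fell and none rose, and 11 (23.4%) were lower at an unadjusted p under 0.05 with none higher, against 4.61% lower over all spots. The median change of the list was -0.20 against -0.01 over all spots. The 5 called spots stood for PBK, KPNA2, TOP2A (2 spots) and CCNB1. In bulk tissue, fewer dividing cells and less RNA per cell cannot be told apart.

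PBK encodes a protein kinase that is active in mitotic cells. It read 0.28, 0.94 and 0.75 in HG week 1 replicates 1, 2 and 4, the order used throughout for that week, and -0.774, -0.998, -1.275 and -0.796 in HG week 7 replicates 1 to 4. All week-1 birds were above the pool and all week-7 birds below it. PBK fell by 1.62 (SE 0.21, 3.07-fold, limma adjusted p = 0.000537), and the group means stepped from 0.66 at week 1 through 0.22 at week 3 and -0.35 at week 5 to -0.96 at week 7. The call held with each of the 7 arrays left out in turn (highest adjusted p = 0.00919).

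TOP2A encodes topoisomerase II alpha, which untangles DNA before chromosomes separate. Its spot 27.9.5 read 0.88, 1.15 and 0.64 at week 1 and -0.83, -0.97, -1.15 and -1.29 at week 7. This was the largest fall among the called spots, at 1.95 (SE 0.34, 3.86-fold, limma adjusted p = 0.0162). Spot 22.15.10 read 0.04, 0.08 and 0.49 at week 1 and -0.39, -0.74, -0.68 and -0.42 at week 7, and fell by 0.76 (SE 0.15, limma adjusted p = 0.0331). The other TOP2A spot did not share the fall: 18.10.4, measured in 2 week-1 and 3 week-7 birds, was 0.52 higher at week 7 (adjusted p = 0.707). The call of 27.9.5 ended without HG week 1 replicate 1 (adjusted p = 0.0765), HG week 1 replicate 2 (0.0540) or HG week 7 replicate 3 (0.0554). That of 22.15.10 ended without HG week 1 replicate 1 or 4 or HG week 7 replicate 2 or 3 (0.0645 to 0.171).

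KPNA2 encodes an importin alpha that carries proteins into the nucleus and is abundant in proliferating cells. Its spot 3.15.11 read 0.77, 0.35 and 0.39 at week 1 and -0.58, -0.72, -0.23 and -0.81 at week 7, a fall of 1.09 (SE 0.18, 2.13-fold, limma adjusted p = 0.00779). The other KPNA2 spot differed by 0.04 (0.17 without HG week 1 replicate 1). Without HG week 1 replicate 1 the fall of 3.15.11 was 0.96 (adjusted p = 0.101). CCNB1, the cyclin whose kinase partner starts mitosis, read 0.50, 0.61 and 0.11 at week 1 and between -0.63 and -0.50 in all 4 week-7 birds. It fell by 0.98 (SE 0.19, 1.97-fold, limma adjusted p = 0.0331), and means of 0.41, 0.28, -0.05 and -0.57 followed each other from week 1 to week 7. The CCNB1 call ended without any 1 of 6 of the 7 arrays (adjusted p = 0.0522 to 0.182) and held only without HG week 1 replicate 4.

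Other members of the cell division list did not pass the adjusted threshold. SMC2, a condensin subunit that compacts chromosomes, was 0.92 lower at week 7 (SE 0.20, adjusted p = 0.0659), with week-1 birds at -0.14, 0.83 and 0.68 and week-7 birds at -0.47, -0.44, -0.26 and -0.68. The mitotic kinesins KIF2C and KIF20A were 0.76 and 0.55 lower and the kinetochore gene KNSTRN 0.61 lower, each with an adjusted p of 0.357 or more. Both spots of STMN1, whose product destabilises microtubules and is abundant in dividing and immature cells, were lower in every week-7 bird than in any week-1 bird. The changes of the STMN1 spots were -0.89 (SE 0.19, adjusted p = 0.0627) and -0.87 (SE 0.21, adjusted p = 0.119). Their limma adjusted p was 0.134 and 0.386 without HG week 1 replicate 1. The median of the cell division list per bird lay between 0.02 and 0.24 at week 1, -0.02 and 0.15 at week 3, -0.18 and -0.03 at week 5, and -0.22 and -0.05 at week 7. The number of list spots that fell ranged from 2 (without HG week 1 replicate 1 or HG week 7 replicate 3) through 3 (without HG week 1 replicate 2 or HG week 7 replicate 2) to 4 (without any other array). Without HG week 1 replicate 1 the 2 were PBK and SMC2, and SMC2 then changed by -1.22 (limma adjusted p = 0.00973).

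DNA replication genes showed no call. Among 66 tested spots, 4 (6.06%) were lower and 1 (1.52%) higher at an unadjusted p under 0.05, and the list median was -0.04. Over all spots 4.61% were lower and 3.74% higher. RRM2, a subunit of the enzyme that makes deoxynucleotides, read 0.40, 0.95 and 0.39 at week 1 and 0.06, -1.02, -1.17 and -0.97 at week 7, so that HG week 7 replicate 1 stood apart from the other birds of its age. The RRM2 change was -1.36 (SE 0.31, limma adjusted p = 0.0766, or 0.255 without HG week 1 replicate 1). MCM2, part of the replicative helicase, was 0.69 lower and PCNA, the sliding clamp, 0.47 lower. Among 36 spots of histone and high mobility group genes, 3 (8.33%) were lower and 1 (2.78%) higher at an unadjusted p under 0.05. They were led by ANP32E, a histone chaperone (0.42, adjusted p = 0.427), and the linker histone gene H1F0 (-0.52, or -0.34 without HG week 1 replicate 1).

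OPTC encodes opticin, a small leucine-rich proteoglycan of the extracellular matrix that is best known from the vitreous of the mammalian eye. Its spot 47.8.18 read 0.33, 0.94 and 1.28 at week 1 and -0.88, -1.50, -0.84 and -0.80 at week 7. Spot 17.10.12 read 0.41, 0.45 and 1.22 at week 1 and -0.57, -1.01, -0.82 and -0.51 at week 7. On both spots every week-1 bird was above the pool and every week-7 bird below it. The falls were 1.86 (SE 0.29, 3.62-fold, limma adjusted p = 0.00714) and 1.42 (SE 0.25, 2.67-fold, limma adjusted p = 0.0180). Most of the step in OPTC lay before week 3: the means of 47.8.18 were 0.85, -0.33, -0.85 and -1.01 at weeks 1, 3, 5 and 7. The other OPTC spot was 0.25 lower with overlapping birds (adjusted p = 0.650). The call of 47.8.18 held with each array left out (highest adjusted p = 0.0489), and that of 17.10.12 ended without HG week 1 replicate 4 or HG week 7 replicate 2 or 3 (0.0637 to 0.118).

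OPTC held both calls among the 91 tested spots of extracellular matrix and basement membrane genes. At an unadjusted p under 0.05, 9 spots (9.89%) of this list were lower and 2 higher, against 4.61% and 3.74% over all spots, and the median was -0.01, as for all spots. MGP, an inhibitor of calcification, was 0.85 lower, COL6A2, a collagen VI chain, 0.64 lower (0.11 without HG week 1 replicate 1) and PRELP, another leucine-rich matrix proteoglycan, 0.74 higher. None of these passed the adjusted threshold.

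PPM1A, a serine/threonine protein phosphatase, fell by 0.98 at 1 of 2 spots (SE 0.18, 1.98-fold, limma adjusted p = 0.0331). It read 1.05 and 0.83 in HG week 1 replicates 1 and 4 and -0.02, -0.07 and -0.04 in HG week 7 replicates 2 to 4, and was flagged on the other 2 arrays. Its mean was already -0.04 at week 3 and -0.09 at week 5. The signal was 1.69 to 4.69 times background, and the fall was 0.47 (adjusted p = 0.312) without background correction and 0.62 (adjusted p = 0.487) with all positive spots kept whatever their flag. The call also ended without HG week 7 replicate 2, 3 or 4 (adjusted p = 0.0992 to 0.138), without either week-1 bird the spot could not be tested, and the other PPM1A spot was 0.21 lower (adjusted p = 0.874), or 0.11 higher without HG week 1 replicate 1.

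The largest rise among called spots was that of FSCN1, which encodes fascin, a protein that bundles actin filaments in cell protrusions. Its spot 27.12.4 read -1.36, -0.96 and -0.87 at week 1 and 0.29, 0.74, 0.24 and 0.33 at week 7. It rose by 1.46 (SE 0.29, 2.76-fold, limma adjusted p = 0.0331), and the mean moved from -1.06 at week 1 to 0.09 at week 3, 0.24 at week 5 and 0.40 at week 7. The 3 other FSCN1 spots tested differed by -0.06, -0.06 and 0.00 (-0.13 to 0.07 without HG week 1 replicate 1), so the rise was seen at 1 of 4 spots that carry this name. The call ended without any 1 of 6 of the 7 arrays (adjusted p = 0.0524 to 0.256).

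MXRA7, a membrane protein named for its link to matrix remodelling, read -0.62, -0.29 and -0.47 at week 1 and 0.15, 0.72, 0.73 and 0.67 at week 7 at spot 31.11.9. It rose by 1.02 (SE 0.21, 2.03-fold, limma adjusted p = 0.0425). The other tested MXRA7 spot, 37.2.5, was 1.25 higher without overlap (SE 0.27, adjusted p = 0.0532). Spot 37.2.5 was 1.05 higher without HG week 1 replicate 1 (limma adjusted p = 0.365). HEBP1, which encodes a heme-binding protein, read -0.53, -0.72 and -0.52 at week 1 and 0.58, 0.47, 0.32 and 0.16 at week 7 at spot 3.12.19, a rise of 0.97 (SE 0.19, 1.96-fold, limma adjusted p = 0.0331). A second HEBP1 spot was also 0.97 higher (SE 0.22, limma adjusted p = 0.0659, or 0.281 without HG week 1 replicate 1). The last HEBP1 spot was 0.29 lower (0.02 higher without HG week 1 replicate 1). Both calls were fragile: that of MXRA7 held only without HG week 7 replicate 1 (adjusted p = 0.0524 to 0.256 without each other array), and that of HEBP1 only without HG week 1 replicate 4 or HG week 7 replicate 4 (0.0823 to 0.171).

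PRXL2A, a redox protein of the peroxiredoxin-like family, read -0.40, -0.02 and -0.62 at week 1 and 0.46, 0.68, 0.47 and 0.50 at week 7. It rose by 0.87 (SE 0.16, 1.83-fold, limma adjusted p = 0.0181), and its other spot was 0.30 higher with overlapping birds (0.16 without HG week 1 replicate 1). The PRXL2A call ended without HG week 1 replicate 1 or 4 or HG week 7 replicate 2 or 3 (adjusted p = 0.0554 to 0.118).

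The other 2 called spots have no gene name in the platform annotation, and they are described because they were called, a choice made after their values were seen. Spot 40.5.9 read -0.44, -0.29 and -0.39 at week 1 and 0.78, 0.39, 0.37 and 0.61 at week 7, and the study's clone lists describe this clone as CD24, a glycoprotein of the cell surface, without giving a symbol. It rose by 0.91 (SE 0.14, 1.88-fold, limma adjusted p = 0.00335), and the call held with each array left out (highest adjusted p = 0.0273). Spot 40.14.4 read -0.50, -0.35 and -0.11 at week 1 and 0.49, 0.46, 0.28 and 0.23 at week 7 and rose by 0.69 (SE 0.12, limma adjusted p = 0.0180). That call ended without HG week 1 replicate 1 or HG week 7 replicate 1 or 2 (0.0518 to 0.144).

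**Figure D2:**
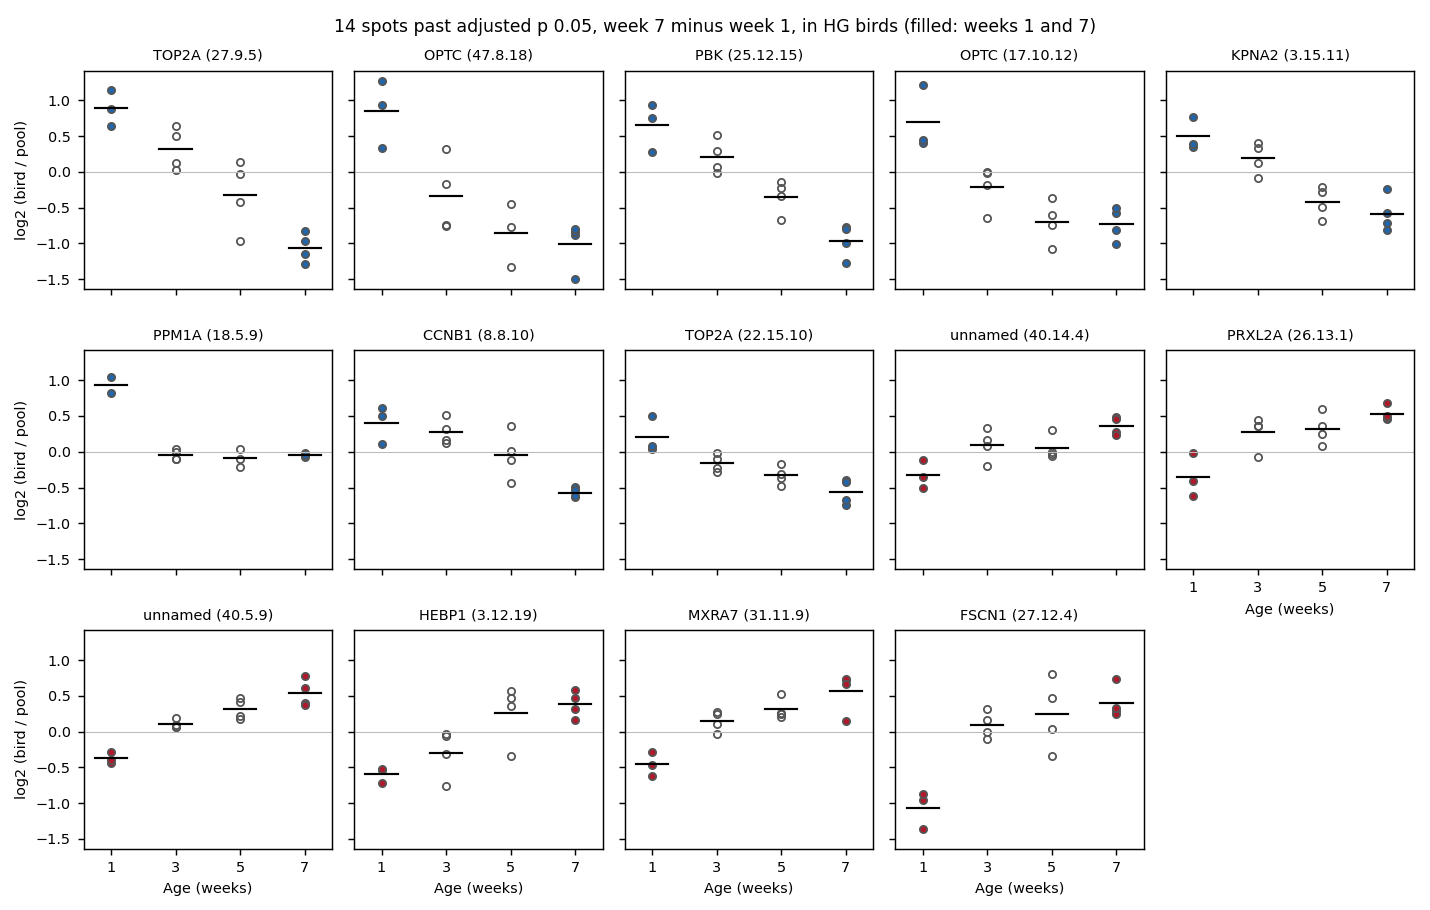
Log2 ratio to the pool (y axis) of each HG bird at weeks 1, 3, 5 and 7 (x axis) for the 14 spots called between week 1 and week 7, 1 panel per spot. Points are birds (filled at weeks 1 and 7, blue for falls and red for rises) and horizontal bars are group means; in every panel the week-1 and week-7 birds do not overlap.

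The same age interval was measured in LG birds, 4 at each week, which share no bird with the HG comparison. Of the 14 spots called in HG, 13 moved in the same direction in LG, against 61.9% of the 16025 spots with a value in both lines. Among spots with an unadjusted p under 0.05 in HG (limma), the share was 78.1% for lower and 82.1% for higher ones. OPTC and TOP2A each held 2 of the 14. In LG 25 spots (0.156%) rose and 16 (0.0998%) fell, 41 (0.256%) in all, and 7 of them were among the 14. These were PBK, which fell by 1.82 in LG, both OPTC spots (falls of 1.75 and 1.49), KPNA2 (1.10), TOP2A spot 22.15.10 (0.80), CCNB1 (1.09) and the CD24-matched spot 40.5.9, which rose by 0.60.

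Other called spots had small changes in LG. TOP2A spot 27.9.5 changed by -0.11, PPM1A by 0.11 and MXRA7 spot 31.11.9 by 0.10 in LG, and the unadjusted p for the difference between lines was 0.000525, 0.000250 and 0.00284. None of these differences passed the adjusted threshold: over all 16025 spots 0 did in limma, and 542 (3.38%) had an unadjusted p under 0.05. The smallest adjusted p was 0.337, at a spot with no gene name. A called change in HG and none in LG is therefore not shown to differ between the lines for any gene.

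**Figure D3:**
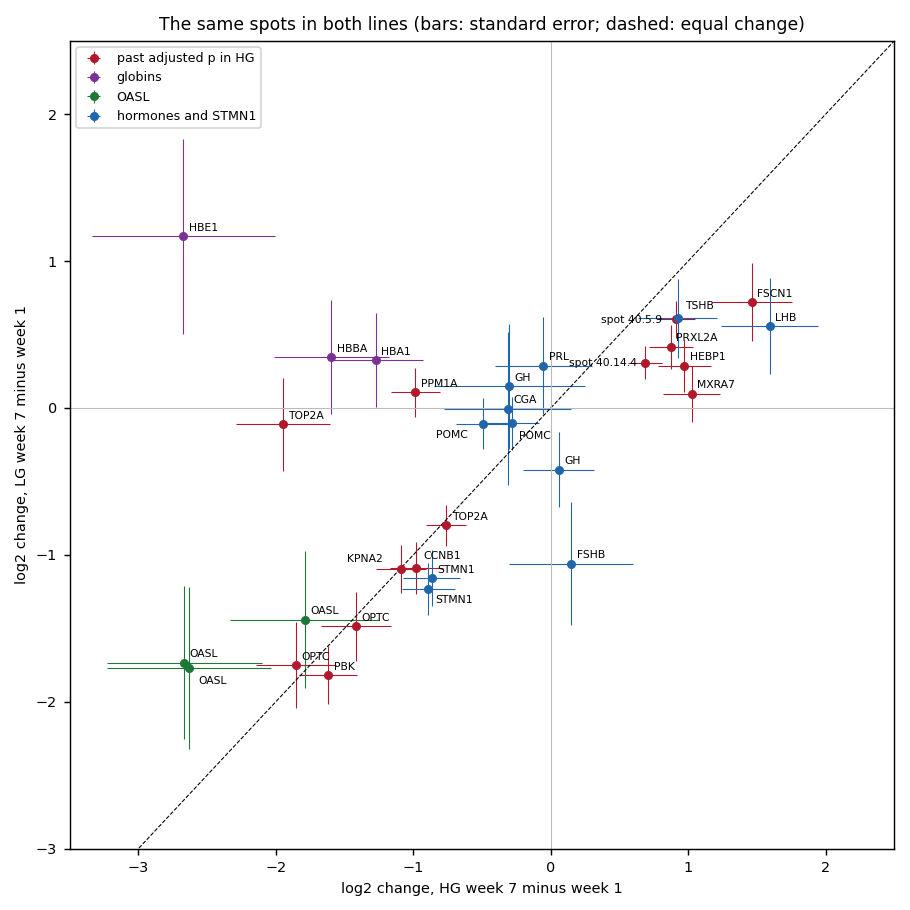
Log2 change from week 1 to week 7 in HG birds (x axis) against that in LG birds (y axis) for the 14 called spots and the hormone, STMN1, globin and OASL spots; error bars are standard errors and the dashed line marks equal change. PBK, KPNA2, CCNB1 and both OPTC spots lie at like values in both lines, while TOP2A spot 27.9.5, PPM1A and MXRA7 lie near 0 on the LG axis.

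None of the 9 spots for 7 pituitary hormone genes passed the adjusted threshold. LHB, the beta subunit of luteinizing hormone, came nearest: it read -1.27, -0.53 and -1.15 at week 1 and -0.17, 0.82, 0.94 and 0.84 at week 7. Week-7 birds were all above week-1 birds, and HG week 7 replicate 1 was the lowest of them. LHB was 1.59 higher at week 7 (SE 0.35, limma adjusted p = 0.0659), with means of -0.98, 0.23, 0.43 and 0.61 at weeks 1, 3, 5 and 7. The LHB difference was 1.45 without HG week 1 replicate 1 (limma adjusted p = 0.343). TSHB, the beta subunit of thyroid-stimulating hormone, read -0.18, -0.17 and -0.92 at week 1 and 0.45, 0.71, 0.27 and 0.58 at week 7, a difference of 0.92 (SE 0.29, adjusted p = 0.333). The HG and LG changes were 1.59 and 0.56 for LHB and 0.92 and 0.61 for TSHB. The difference between lines had a limma unadjusted p of 0.0407 for LHB and 0.430 for TSHB, and neither passed the adjusted threshold.

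POMC, the precursor of corticotropin, was 0.50 lower at spot 37.2.19 (SE 0.20, adjusted p = 0.483), where HG week 1 replicates 2 and 4 read 0.40 and 0.57 and the week-7 birds -0.11, -0.11, 0.02 and 0.17. Its other spot was 0.28 lower with overlapping birds (adjusted p = 0.741). The rest of the hormone genes overlapped between weeks. The common alpha subunit CGA differed by -0.32 (SE 0.46), FSHB, the beta subunit of follicle-stimulating hormone, by 0.15 (SE 0.45) and prolactin (PRL) by -0.05 (SE 0.35). Growth hormone (GH) differed by -0.30 (SE 0.55) and 0.06 (SE 0.26) at its 2 spots. Without HG week 1 replicate 1, CGA differed by -0.16, FSHB by 0.48, PRL by 0.15 and the second GH spot by -0.06, and the first GH spot could not be tested. The POMC difference was itself not called, nor was that of LHB at 1.59 (SE 0.35). With 7 arrays and standard errors of 0.26 to 0.55 for CGA, FSHB, PRL and GH, differences larger than that of POMC could also go uncalled.

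Genes that act around the hormones showed no call. Of 36 spots for secretory granule and prohormone processing genes, 6 (16.7%) were higher at an unadjusted p under 0.05 and none lower, against 3.74% over all spots, and the list median was 0.09 (4 of 34, 11.8%, and 0.16 without HG week 1 replicate 1). CHGB, which encodes the granule protein chromogranin B, read -0.69 and -0.78 in HG week 1 replicates 2 and 4 and 0.52, 0.53, -0.21 and 1.11 at week 7, a difference of 1.22 (SE 0.45, adjusted p = 0.436). PCSK1, a convertase that cleaves prohormones, was 0.68 higher (SE 0.26, adjusted p = 0.468). Both genes rose in LG, by 2.31 (limma adjusted p = 0.00188) and 1.10 (limma adjusted p = 0.0432). The other spots higher at an unadjusted p under 0.05 stood for SCG5 (0.46), a chaperone of another convertase, PAM (0.38, or 0.22 without HG week 1 replicate 1), which amidates peptide hormones, the proton pump partner ATP6AP2 (0.53) and the monoamine transporter SLC18A2 (0.24).

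Among 87 spots for protein folding and export in the endoplasmic reticulum, 8 (9.20%) were higher and 1 lower at an unadjusted p under 0.05, against 3.74% and 4.61% over all spots. Without HG week 1 replicate 1 the count was 1 of 85 higher and none lower. The 8 included the lumenal chaperones HSPA5 (0.51) and HYOU1 (0.41, or 0.26 without that bird), the lectin chaperone CANX (0.39) and the translocon subunit SEC61B (0.35), while SRP9 of the signal recognition particle was 0.31 lower. Among 67 ribosomal protein spots 46 were higher and 21 lower, with a median of 0.10, while 7776 of all 16295 spots were higher. The 5 (7.46%) past an unadjusted p under 0.05 were all higher, against 3.74% over all spots. They included RPS24 (0.35) and RPS14 (0.29), and none passed without HG week 1 replicate 1. Of 47 exocytosis spots, 4 (8.51%) were higher and 1 (2.13%) lower, with the vesicle SNARE VAMP3 0.72 higher and SYT11, a synaptotagmin, 0.49 higher. Whatever their p, 21 exocytosis spots were higher and 26 lower, and the list median was -0.08 (0.06 without HG week 1 replicate 1).

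Pituitary transcription factors, receptors and signaling genes had no call. Of 25 transcription factor spots, 3 (12%) were lower and 1 (4%) higher at an unadjusted p under 0.05, against 4.61% and 3.74% over all spots. EGR1, an immediate early gene that drives LHB transcription in mammals, was 1.05 lower (limma adjusted p = 0.322), measured in 2 week-1 and 4 week-7 birds. NR0B1, a nuclear receptor that represses steroidogenic genes, was 0.85 lower with overlapping birds (0.29 lower without HG week 1 replicate 1). Of 27 receptor spots, 3 (11.1%) were higher: CRHR2, a receptor for corticotropin-releasing peptides, by 0.79, IGF2R, which clears insulin-like growth factor II in mammals, by 0.37, and FGFR1, a fibroblast growth factor receptor, by 0.25. Among 84 signaling spots ADCY2, an adenylate cyclase, moved furthest: week-1 birds read -4.02, -3.41 and -4.15 and week-7 birds -1.02, -1.51, -1.81 and -1.73. The difference was 2.34 (SE 0.82, adjusted p = 0.408), the mean at week 3 was -0.22, and ADCY2 rose by 5.13 in LG (limma adjusted p = 0.00114). The spot was dim, with a Cy3 signal of 1.43 to 5.83 times background.

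No spot of the interferon response list was called, although its share of lower spots was above that over all spots. Of 38 spots, 14 (36.8%) were lower and 2 higher at an unadjusted p under 0.05, against 4.61% and 3.74% over all spots, and the list median was -0.28 in HG and -0.08 in LG. Without HG week 1 replicate 1, 7 of 37 (18.9%) were lower and none higher, against 2.45% lower over all spots, and the median was -0.19. Spot 42.13.20 of OASL, an interferon-induced gene of the oligoadenylate synthetase family, read 0.68, 0.96 and -0.46 at week 1 and -1.90, -2.58, -1.46 and -3.16 at week 7. All week-7 birds were below all week-1 birds, but HG week 1 replicate 4 lay well below the other 2 of its age. The OASL change was -2.67 (SE 0.57, limma adjusted p = 0.0532), and the means were 0.39, 0.56, -1.65 and -2.28 at weeks 1, 3, 5 and 7, so that the step lay between weeks 3 and 5. The change at this spot was -2.52 without HG week 1 replicate 1 (limma adjusted p = 0.281). OASL spots 40.9.1 and 22.1.9 differed by -2.63 (limma adjusted p = 0.0742, or 0.343 without HG week 1 replicate 1) and -1.79 (adjusted p = 0.310). These 3 spots hold 3 of the 14 lower spots and are named OAS3 in the study's list. So is spot 35.13.4, which the platform names DRG2 and which was added after its values were seen. It differed by -2.33 (limma adjusted p = 0.0973, or 0.399 without HG week 1 replicate 1). The last 2 of the 5 OASL spots tested differed by -0.33 and -0.21 (adjusted p = 0.777 and 0.871).

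LY6E, an interferon-induced surface protein, was 1.25 lower at spot 30.2.2 (SE 0.28, adjusted p = 0.0746), with week-1 birds from 0.52 to 0.88 and week-7 birds from -0.91 to -0.16. This LY6E spot was 1.13 lower without HG week 1 replicate 1 (limma adjusted p = 0.386). The transcription factor IRF8 was 1.11 lower and the guanylate-binding protein GBP1 1.06 lower, both with overlapping birds, and the antiviral GTPase MX1 0.76 lower without overlap, all with adjusted p of 0.311 or more. GBP1 was 0.67 lower without HG week 1 replicate 1. The 2 spots higher at an unadjusted p under 0.05 were both of IFNGR1, a subunit of the interferon gamma receptor (0.61, or 0.34 without that bird, and 0.38). The list median per bird ran from 0.03 to 0.41 at week 1 and from -0.26 to -0.06 at week 7, with no overlap. Medians per bird did not overlap either for the cell division, erythrocyte, secretory granule, adipocyte and thyroid hormone lists. Without HG week 1 replicate 4, 3 spots of the list were called. With print-tip loess, scaling between arrays, no background correction, the deposited ratios, spots present on all 7 arrays or the 15 HG arrays alone 1 was called, and with array weights 5.

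Antigen presentation and complement genes had no call either. Of 50 antigen presentation spots 4 (8%) were higher and 2 (4%) lower at an unadjusted p under 0.05, against 3.74% and 4.61% over all spots. B2M, the light chain of class I molecules, was 0.80 higher at spot 46.1.19 (adjusted p = 0.357; 2 birds per week) and 0.19 to 0.61 higher at its 5 other tested spots. BF1, a class I heavy chain, was 0.81 lower with overlapping birds (adjusted p = 0.404), or 0.37 lower without HG week 1 replicate 1. BF1 was 0.96 higher in LG, and the difference between lines had an unadjusted p of 9.22e-05 (adjusted p = 0.739). Of 39 complement and innate defense spots 8 (20.5%) were higher and 1 lower, against 3.74% and 4.61% over all spots, and without HG week 1 replicate 1 the count was 3 of 36 (8.33%) higher. The 8 included 3 spots of CFD, complement factor D, at 0.89 (not tested without that bird), 0.76 and 0.54, and 2 of CD59, an inhibitor of complement, at 0.36 and 0.50.

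**Figure D4:**
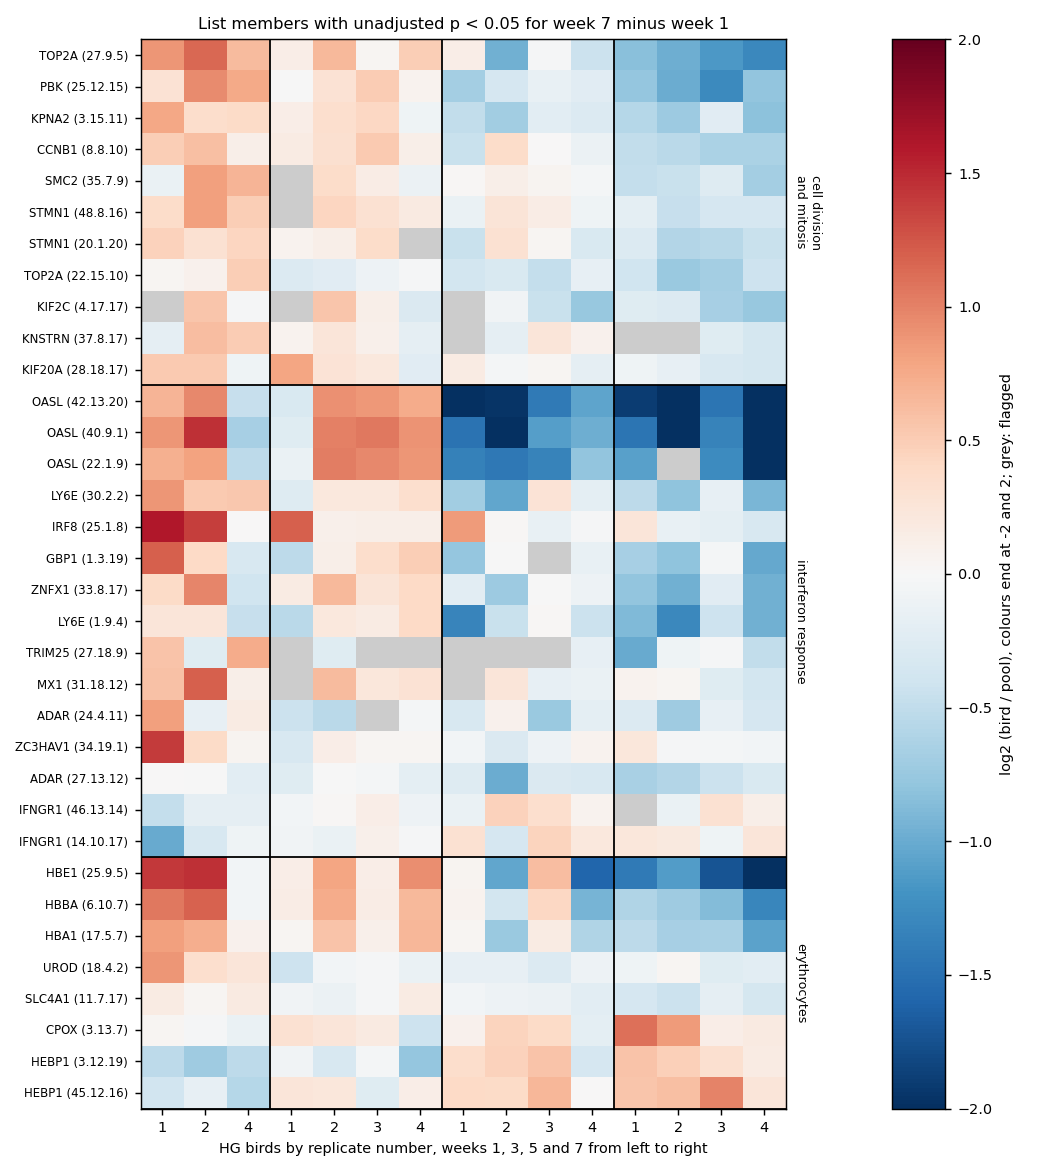
Log2 ratio to the pool (colour, ending at -2 and 2, grey where flagged) of the spots of 3 lists with an unadjusted p under 0.05 (rows, with 1 interferon spot left out) in each HG bird (columns, by replicate number, weeks 1, 3, 5 and 7 from left to right). Most rows run from red at week 1 to blue at week 7, the HEBP1, CPOX and IFNGR1 rows run the other way, and HG week 1 replicate 4 is paler or blue for OASL and the globin genes.

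Among the marker lists of other cells in or near the gland HEBP1 was the only call. Of 19 erythrocyte spots, 5 (26.3%) were lower and 3 higher at an unadjusted p under 0.05, against 4.61% and 3.74% over all spots, and the median per bird was 0.03 to 0.23 at week 1 and -0.21 to -0.03 at week 7. The globin gene HBE1 read 1.41, 1.46 and -0.06 at week 1 and -1.41, -1.12, -1.72 and -2.70 at week 7 (-2.67, SE 0.66, adjusted p = 0.144). HBBA read 1.06, 1.18 and -0.06 at week 1 and between -1.31 and -0.61 at week 7, and HBA1 was 1.27 lower. These 3 globin genes were chosen after their values were seen, and the HBBA spot is named HBE1 in the study's list. In all 3 the weeks did not overlap, but spots chosen for their change tend not to. Over spots on all 7 arrays 4.44% had every week-7 bird below, a share that is no measure for spots chosen this way. HG week 1 replicate 4 was the lowest bird of its age in all 3, as it was for OASL. HBE1 was 1.17 higher in LG (unadjusted p of the difference 0.000381), and HEBP1, which is on the erythrocyte list, rose. HBBA and HBA1 were 0.35 and 0.32 higher in LG, where none of the 3 globin spots was called and 6 cell division spots fell. In HG birds the globin genes were lower at week 7, as were the medians of the interferon and cell division lists. The part of blood cells in those results was not tested.

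Markers of glia and the posterior pituitary had 3 of 19 spots (15.8%) lower at an unadjusted p under 0.05 and none higher. Over all spots 4.61% were lower and 3.74% higher. GPM6B, a membrane protein of glia and neurons, read 0.45, 0.99 and -0.78 at week 1 and between -1.84 and -1.03 at week 7 (-1.63, SE 0.46, adjusted p = 0.257), and MBP, a myelin protein, was 0.71 lower. The medians of this list per bird ran from 0.00 to 0.23 at week 1 and from -0.22 to 0.01 at week 7. Medians per bird overlapped between weeks for T cells (-0.52 to -0.06 and -0.32 to -0.14), B and plasma cells (-0.29 to -0.08 and -0.25 to 0.00) and macrophages and granulocytes (-0.21 to -0.06 and -0.20 to 0.06). At an unadjusted p under 0.05, T cell spots (6) had none higher or lower, B and plasma cell spots (7) 1 higher, and macrophage and granulocyte spots (23) 2 higher and 1 lower. These lists held CD74, the invariant chain (0.91 higher at 1 spot and 0.14 lower at another). They also held LAPTM5, a lysosomal protein of blood cells (0.58 lower at 1 spot and 0.69 higher at another), and the cytokine gene IL1B (0.36 higher). The T cell list was led by GNLY, a granulysin, at 0.53 and 0.34. Of the defining genes of B and plasma cells, the J chain gene JCHAIN, listed under its older symbol IGJ, was on the array. Its spot was 0.28 higher at week 7 in HG and 2.51 higher in LG. The difference between lines had a limma unadjusted p of 0.000523 and did not pass the adjusted threshold. The defining genes of T cells had 1 on the array.

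Endothelial spots (50) had 1 higher and 2 lower at an unadjusted p under 0.05, fibroblast and pericyte spots (19) 1 and 1, thrombocyte spots (5) 0 and 1, and hypothalamic neuron spots (28) 1 and 2. The shares over all spots were 3.74% higher and 4.61% lower. The vascular genes LMO2 and NRP2 were 0.34 and 0.49 lower, and TCF21, a transcription factor of mesenchymal cells, 0.52 lower (adjusted p = 0.310). RGS5, a pericyte gene (named WDR33 in the study's list), was 0.65 higher with overlapping birds. The thrombocyte genes CD9 and F13A1 were 0.86 and 0.38 lower at 1 spot each, or 0.36 and 0.19 without HG week 1 replicate 1. F13A1 was the 1 defining thrombocyte gene on the array, and the median change of its 3 tested spots was 0.11. STMN2, a neuronal relative of STMN1, was 0.69 higher and the neuropeptide gene NPY 0.58 lower, each without overlap between weeks. Spots of pars tuberalis and folliculostellate cells (21) had 2 higher, TSHB and the annexin gene ANXA1 (0.28), and none lower. The median of this list was -0.04, and the 1 tested spot of its defining genes was 0.60 lower and not called. Retina and pineal spots (11) had 1 lower, OPN4, which encodes melanopsin (-0.54, or -0.34 without HG week 1 replicate 1; -0.25 at its other spot), and skeletal muscle spots (21) none of either, with ACTN2 0.43 lower. HG week 1 replicate 2 read 3.33 for the muscle gene MYL1, with all other HG birds of weeks 1 and 7 between -0.12 and 0.70. Adipocyte spots (19) had 4 higher, 3 of them CFD.

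The remaining lists had few spots past an unadjusted p under 0.05, and FSCN1 was the only call among them. The shares over all spots were 3.74% higher and 4.61% lower. Cytoskeletal and neurite genes (125 spots) included FSCN1 and had 3 higher and 7 lower at an unadjusted p under 0.05, the lower ones with 2 spots of the beta-actin gene ACTB (-1.30, not tested without HG week 1 replicate 1, and -0.86). Splicing genes (98) had 1 higher and 5 lower (1 and 2 without HG week 1 replicate 1), led by SMG1, a kinase of nonsense-mediated decay (-0.83, adjusted p = 0.0532), which fell by 1.00 in LG (limma adjusted p = 0.00501). SMG1 was 0.71 lower in HG without HG week 1 replicate 1 (limma adjusted p = 0.343). The splicing factor SRSF1 was 0.65 lower with overlapping birds, or 0.41 without HG week 1 replicate 1. Lipid and cholesterol genes (104) had 8 higher and 4 lower (5 and 1 without HG week 1 replicate 1), with the sterol carrier gene SCP2 0.38 higher, the fatty acid desaturase FADS2 0.76 higher at 1 of 5 spots (-0.64 to 0.21 at the others) and DHCR7, a late enzyme of cholesterol synthesis, 0.89 lower. Thyroid hormone genes (53) had 1 higher and 5 lower, but 29 of these spots carry the name DIO1, a deiodinase, and ran from -0.71 to 0.75. Ubiquitin and proteasome genes (94) and oxidative phosphorylation genes (59) had 2 higher and 2 lower each, glucocorticoid-responsive genes (38) 3 and 3, and ion channels (44) 1 and 2. PSMD9, a chaperone of proteasome assembly, came near the threshold: it read -0.74, -0.06 and -0.08 at week 1 and between 0.53 and 0.70 at week 7. The weeks did not overlap, and the PSMD9 difference was 0.89 (SE 0.19, adjusted p = 0.0532). It was 0.66 without HG week 1 replicate 1 (limma adjusted p = 0.405). The proteasome activator PSME3 was 0.56 higher, the respiratory chain genes SDHD and UQCRC2 0.72 higher and 0.76 lower, and the antiproliferative gene BTG2 0.94 higher. The receptor channels P2RX7 and CHRNA7 were 0.80 higher and 0.37 lower, and none of these passed the adjusted threshold.

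**Figure D5:**
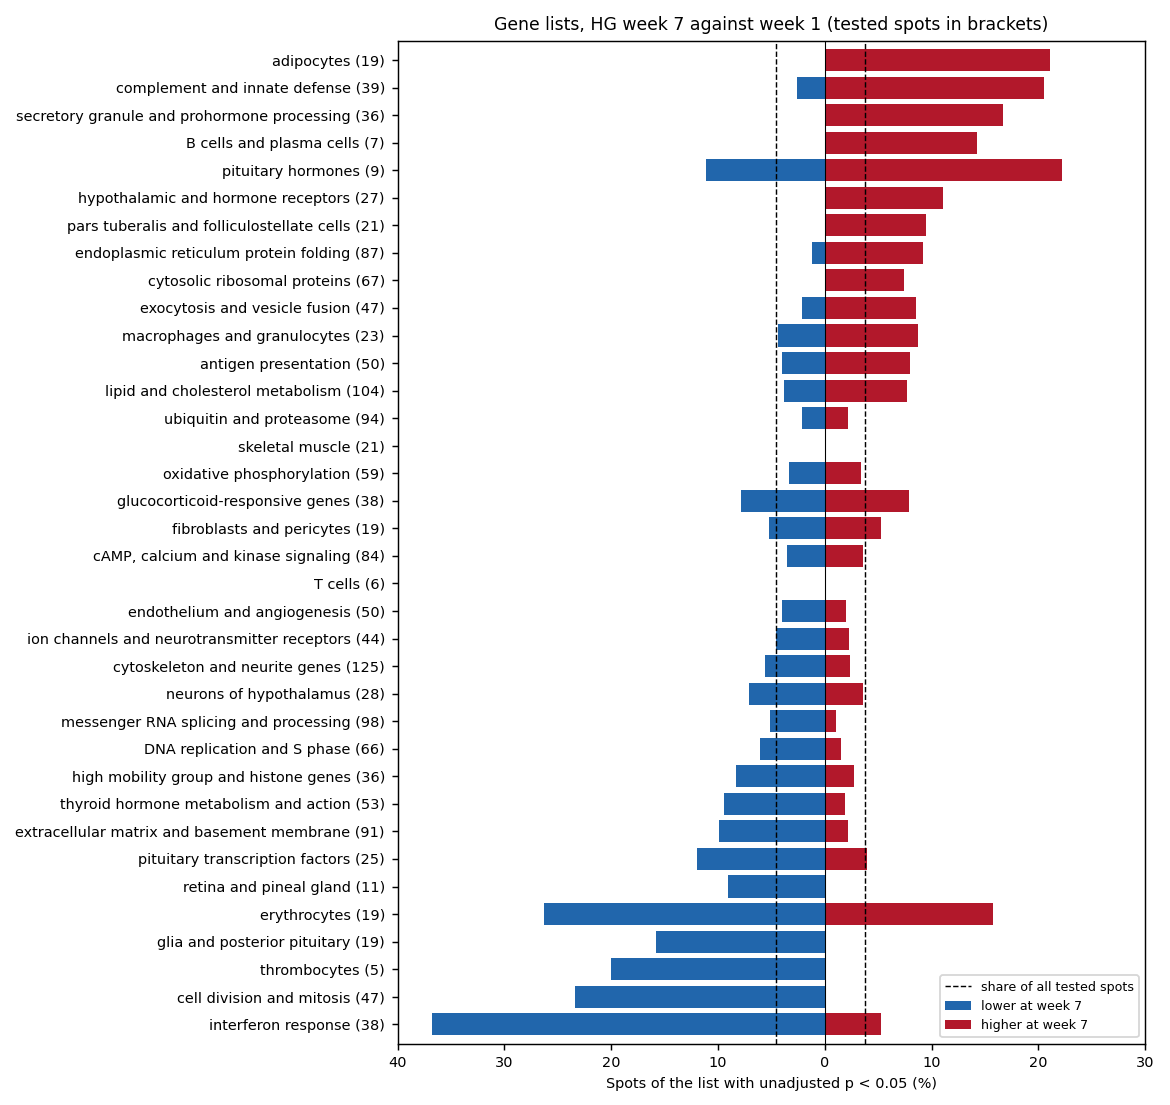
Share of the tested spots of each gene list (percent, x axis) that were higher or lower at week 7 in HG birds at an unadjusted p under 0.05, 1 row per list, with the share over all tested spots marked. Interferon response (36.8% lower), erythrocytes (26.3% lower) and cell division (23.4% lower) had the largest lower shares.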

How the data were processed

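Anterior pituitary RNA was measured on spotted 2-colour cDNA arrays, 1 per bird. The authors read spots with Spotfinder and normalized them in MIDAS by lowess within print blocks after a background check. The deposited scanner columns are intensity values with a local background, and the deposited series table holds the authors' log2 ratios of Cy3 to Cy5, which match the single files within 0.000499. No dye was swapped, so dye bias and change against the pool cannot be separated within an array; the methods state the dyes, which sets the direction. Here intensities were corrected by normexp (offset 50), spots flagged other than good were set missing, and log2 ratios were loess-normalized within arrays. A spot was tested if present on at least 16 of 31 arrays, 2 arrays of each of the HG week 1 and HG week 7 groups and 1 of each other group; 2905 of 19200 spots were left out. Limma 3.58.1 (R 4.3.3) was fitted on 8 group means over 31 arrays, with moderated tests, so that all groups share the estimate of spread. P-values were adjusted by Benjamini-Hochberg over 16295 spots at 0.05. LG changes and the difference between lines came from the same fit, at 16025 spots with at least 2 arrays at each LG week. P-values weigh a change against the spread within the 8 groups. With 1 array per bird, that spread holds variation between birds and between arrays together. The number of arrays limits the precision, and array data give no read depth.

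Names came from the platform annotation, updated through RefSeq, or from a symbol in the study's clone lists where it gave none; 164 spots have 2 differing names. Genes were named if called, if they were pituitary hormones or STMN1, or if they led 1 of 36 gene lists by p. Further list members are given as examples, and the globin genes among them, and DRG2 spot 35.13.4, were chosen after their values were seen. The values of 1 interferon response spot are not reported here. Members and lists were chosen with earlier results of these data known. Lists are described by counts and medians, with no test. The fit was tested on simulated data. Alternatives were other normalizations, filters, fits, call rules and left-out arrays. Same-numbered birds are not stated to be related, and no block was used in the main fit. Their deviations correlated positively but weakly, at 0.0851 to 0.229, and the fit with a block is given below. Replicate number also followed array quality: replicate 4 had the most unflagged spots in every group of line and age. HG week 1 lacks replicate 3. No sequences are printed.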

Additional observations from a re-analysis of the deposited data

Results flagged for a closer look

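Among 77 named spots with all 4 HG week-7 birds measured, 7 had 1 bird farther from the rest than Dixon's critical value of 0.829 allows, and chance gives such a bird in about 1 of 20 groups. In 6 of the 7 it was HG week 7 replicate 1. That bird read 0.15 for MXRA7 spot 31.11.9 (nearest other bird 0.67), -0.17 for LHB (0.82), 0.0596 for RRM2 (-0.97), -1.27 for NR0B1 (-0.10), 0.63 for H1F0 (-0.07) and 0.32 for POMC spot 38.5.10 (0.03). For OPTC spot 47.8.18, HG week 7 replicate 2 read -1.50 with the nearest bird at -0.88. Of these 7 spots OPTC and MXRA7 were called, and both were also called without the bird that stood apart.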

How the results depend on the processing

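All 14 called spots kept their direction under every alternative that gave a value. The counts of spots that rose (6), fell (8) and differed between lines (0) depended on the setting. They were 12, 17 and 0 with print-tip loess; 11, 12 and 0 with scaling between arrays, and the same without background correction. The deposited ratios gave 48, 35 and 0 over 8794 tested spots, array weights 50, 68 and 0, and the 12288 spots present on all 7 arrays 14, 14 and 0. The 7 HG arrays alone gave 1 and 1, with only TOP2A spot 27.9.5 shared, the 15 HG arrays 4 and 9, and a filter of 1 array per group 1 difference. Median centring ended the calls of TOP2A spot 22.15.10, CCNB1, HEBP1 and MXRA7, and the fit on the 15 HG arrays those of spot 40.14.4, PRXL2A, TOP2A spot 22.15.10, CCNB1 and HEBP1. Calls also ended for PPM1A, TOP2A spot 22.15.10 and HEBP1 without background correction, for CCNB1 with scaling, for FSCN1 and MXRA7 without moderation, and for PPM1A and MXRA7 with all positive spots. An unadjusted p of 0.05 with a change of at least 0.68 gave 99, 242 and 315. Leaving out 1 array gave 1 to 9 rises, 3 to 33 falls and 0 to 1 differences.

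With the replicate number as a block, 15 rose, 22 fell and 0 differed, with 8 calls on the cell division list and 3 on the interferon list. Deviations of same-numbered HG week 1 and week 7 birds correlated at 0.0851, 0.125 and 0.229 for replicates 1, 2 and 4. FSHB became -0.0149 under the block.

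Small uncalled values changed sign. With median centring CD74 spot 35.9.13 was 0.0269, CGA 0.0141, GH spot 43.6.11 -0.0253 and PRL 0.194. In the deposited ratios CD74 was 0.0035 and PRL 0.0469, and with array weights CGA was 0.0352 and PRL 0.22. Leaving out 1 array gave -1.53 to 0.0267 for MYL1, -0.59 to 0.10 for CGA, -0.14 to 0.48 for FSHB, -0.0566 to 0.17 for that GH spot and -0.30 to 0.15 for PRL. The causes were not tested. Dim signal limits the spots of PPM1A, ADCY2, EGR1, MX1 and IRF8, whose lowest Cy3 signals were 1.69, 1.43, 1.55, 1.56 and 1.54 times background. Other spots were also dim on at least 1 array. The lowest signal was 1.54 for OASL spot 22.1.9. It was 1.80 to 1.92 for B2M spot 46.1.19, TCF21, PSMD9, RRM2, SMG1 and GPM6B.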
